A study of Mus musculus with 4 samples.

Results

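The D cyclins Ccnd1, Ccnd2 and Ccnd3, the E cyclin Ccne1, the kinases Cdk4 and Cdk6 and the kinase inhibitors Cdkn1a, Cdkn1b, Cdkn1c and Cdkn2c were followed in 2 experiments on mouse colon. These 10 genes were chosen by name as a family and were selected on 2 values seen earlier in the same arrays, a lower signal of Cdkn1b after loss of Rspo3 and a higher signal of Cdk6 in Axin2+ cells. Their levels and ratios are therefore given as descriptions, with no test. They were read by 18 of the 41174 gene probes on the array, out of 27343 named genes and transcripts.

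Rspo3, a secreted protein that enhances Wnt signalling, was deleted by tamoxifen in mice of the genotype Myh11CreErt2/Rspo3 fl/fl, called Rspo3 KO, and the controls were Myh11CreErt2/Rspo3 +/+ littermates that carried the same Cre and received the same tamoxifen. The Myh11 promoter limits the deletion to smooth muscle and myofibroblasts. Colon RNA was compared 2 weeks after tamoxifen on 2 arrays, with 1 KO and 1 control mouse on each and the dyes reversed on array 2, which gave 2 biological replicates. In the second experiment, Axin2CreErt2/Rosa26-tdTomato mice, in which tamoxifen marks cells that express the Wnt target Axin2, were used 24 h after tamoxifen. Epithelial cells with and without tdTomato (Axin2+ and Axin2-) were sorted from 3 mice and pooled. These pools were hybridised on 2 arrays with the dyes reversed, which is 1 replicate measured in both dye orientations, and no test was possible. All mice were C57BL/6 males of 6 to 8 weeks, and all received tamoxifen at 4 mg per 25 g body weight. The labels name distal colon for the first experiment, whereas the study's methods name colon.

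D cyclins bind Cdk4 and Cdk6 in G1 and start the phosphorylation of the retinoblastoma protein, and E cyclins with Cdk2 continue it, which frees E2F factors to switch on genes for DNA replication. Inhibitors of the Cip/Kip family, Cdkn1a (p21), Cdkn1b (p27) and Cdkn1c (p57), bind cyclin-kinase complexes, and those of the Ink4 family, such as Cdkn2c (p18), bind Cdk4 and Cdk6 themselves. In the colon crypt, cells divide near the base under Wnt signals and leave the cycle as they move towards the surface. Myc, itself a Wnt target in this tissue, binds the letters CACGTG (the E-box) and is known to act on the genes of several of these proteins.

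Values are log2 ratios of Rspo3 KO over control or of Axin2+ over Axin2- cells, so that 1 unit is a doubling, and each gene is represented by its brightest probe. Array 1 is given before array 2. A gene was counted past 1.5-fold when the mean of both arrays exceeded it and both arrays had the same direction.

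Upstream regions of 4 genes are shown because their genes carried the largest ratios and the regions differ in the E-box. Promoter sequences were taken from RefSeq (GRCm38.p6), where 7 of the 10 genes had an entry, with 10 start sites among them, and none was matched for Ccnd1, Ccnd2 and Cdkn1c. Each line holds the 250 bases before the start site, read 5′ to 3′ along the gene, and capitals mark CACGTG or GGGCGG (the GC box), the latter on either strand as GGGCGG or CCGCCC. All 4 genes lie on the plus strand, Cdk4 at chr10:127063285-127063534, Cdk6 at chr5:3343643-3343892, the second start of Cdkn1a at chr17:29093519-29093768 and Cdkn1b at chr6:134920151-134920400.
Cdk4: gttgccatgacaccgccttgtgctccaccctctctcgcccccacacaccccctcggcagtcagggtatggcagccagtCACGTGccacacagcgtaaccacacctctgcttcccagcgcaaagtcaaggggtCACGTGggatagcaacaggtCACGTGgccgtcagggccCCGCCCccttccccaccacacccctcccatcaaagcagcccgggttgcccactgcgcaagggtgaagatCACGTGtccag
Cdk6: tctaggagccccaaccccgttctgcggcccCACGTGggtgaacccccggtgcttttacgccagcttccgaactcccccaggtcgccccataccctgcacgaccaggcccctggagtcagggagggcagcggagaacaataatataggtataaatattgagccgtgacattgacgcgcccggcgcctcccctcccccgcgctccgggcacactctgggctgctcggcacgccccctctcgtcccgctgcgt
Cdkn1a: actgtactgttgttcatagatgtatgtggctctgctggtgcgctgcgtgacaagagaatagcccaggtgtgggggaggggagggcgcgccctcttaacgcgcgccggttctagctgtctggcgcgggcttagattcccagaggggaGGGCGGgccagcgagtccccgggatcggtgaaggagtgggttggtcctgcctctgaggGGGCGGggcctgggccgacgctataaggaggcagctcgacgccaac
Cdkn1b: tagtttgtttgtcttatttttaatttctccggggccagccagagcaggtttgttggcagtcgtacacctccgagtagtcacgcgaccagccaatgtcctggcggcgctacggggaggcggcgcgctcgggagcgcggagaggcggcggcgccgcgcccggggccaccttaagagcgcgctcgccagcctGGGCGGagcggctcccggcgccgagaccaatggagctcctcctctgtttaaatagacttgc

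The Cdk4 region held CACGTG 4 times and that of Cdk6 held it once, and the other 8 start sites held none. Of all 32851 promoters in the table, 6.02% held CACGTG at least once, and 7 promoters held it 4 times or more. The GC box was found in 7 of the 10 regions and in 32.7% of all promoters. E2F letters (TTTCGCGC, TTTGGCGC, TTTCCCGC or TTTGCCGC, both strands) were in none of the 10 regions and in 1.86% of all promoters. The Tcf/Lef letters CTTTGAT or CTTTGAA were in 1 region, that of Cdk4, and in 7.48% of all promoters, and the forkhead letters TGTTTAC were in 1, a start of Ccnd3, and in 3.17% of all promoters. No motif overlapped CACGTG. A match describes the letters of a window and no binding was measured.

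Before the members, 3 facts of the arrays bear on them. The ratios of the 2 Rspo3 KO arrays had a Pearson r of 0.03 across 15382 genes and the same direction for 44.2% of them, whereas the 2 Axin2 arrays had an r of 0.92 across 15880 genes. Since array 2 of the KO experiment reversed the dyes and used another pair of mice, dye and mouse cannot be told apart there. Axin2 itself was higher in Axin2+ cells at 1.35 and 1.30. The loss of Rspo3 was not visible. Neither of its probes was well above background on array 1, and on array 2 the only one that was had 0.17, slightly higher in the library labelled KO. Where these probes lie relative to the deleted part is not known.

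In the sorted epithelium, the kinases and most cyclins were higher in the Axin2+ cells and 2 of the 3 Cip/Kip inhibitors were lower. Of the 10 genes, 6 were higher on both arrays, 3 were lower on both and Cdkn1b had opposite directions. Over all 15880 genes, 6521 were higher on both arrays, 6618 were lower on both and 2741 had opposite directions. Past 1.5-fold were 4 higher genes (Ccnd1, Ccnd2, Cdk4 and Cdk6) and 2 lower genes (Cdkn1a and Cdkn1c). With median centring in place of loess, Cdk6, Cdkn1a and Cdkn1c kept this call, whereas the arrays took opposite signs for Ccnd1 (1.75 and -0.66), Ccnd2 (1.77 and -0.86) and Cdk4 (1.94 and -0.57). Among all genes measured there, 7.87% were past it higher and 6.92% lower. Nothing is read from the comparison with these shares, since the genes were chosen with these values in view. The median of the 10 mean ratios was 0.32, against -0.005 for all genes.

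**Figure D1:**
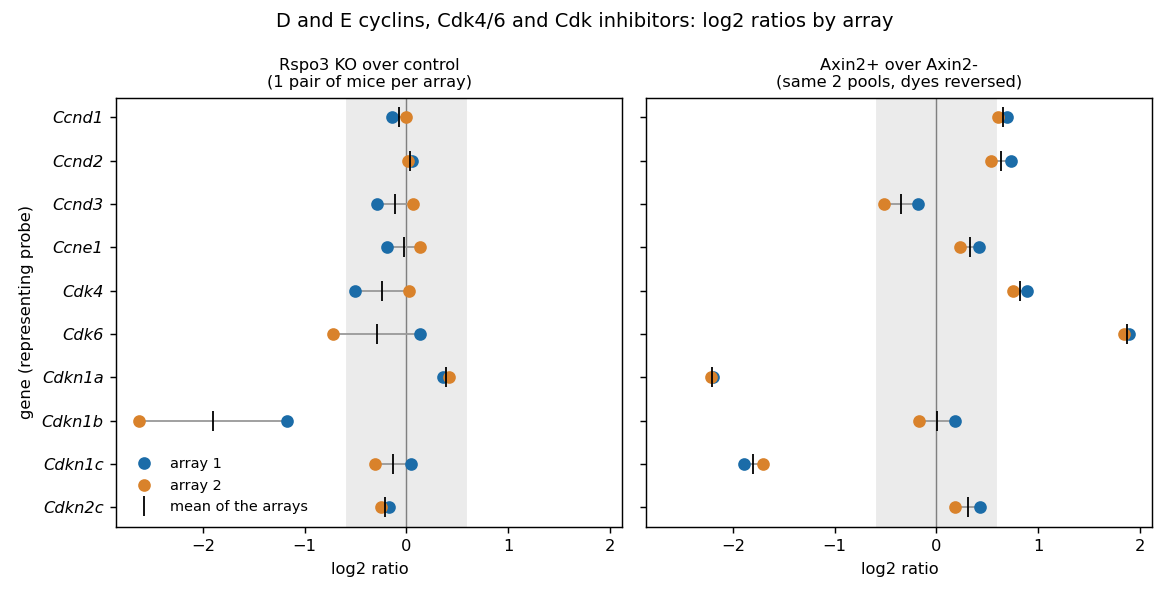
Log2 ratio (x axis) of the representing probe of each gene on array 1 (blue) and array 2 (orange), with the mean as a black tick, for Rspo3 KO over control (left) and Axin2+ over Axin2- (right), and the band within 1.5-fold in grey. In the right panel Cdk6 lies at 1.90 and 1.85 and Cdkn1a at -2.20 and -2.21, whereas in the left panel Cdkn1b, at -1.17 and -2.62, is the gene outside the band on both arrays.

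Cdk6, a catalytic partner of the D cyclins, had the highest ratio of the set. Its log2 signal was 12.2 in Axin2+ cells on both arrays and 10.3 and 10.4 in Axin2- cells. The log2 ratios were 1.90 and 1.85, a mean fold of 3.66. The probe lies at chr5:3529287-3529346 of mm9. Both other Cdk6 probes were dimmer and pointed the same way, with ratios of 1.05 and 0.88 for the probe nearest the start of the transcript and of 0.79 and 0.69 for the dimmest. The distance between probes changed with the processing. In the software's own log ratios, to which no offset was added, the dimmest probe had 2.05 and 1.88, the next 1.32 and 1.22 and the brightest 1.93 and 1.94.

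Cdk4, the other kinase of the D cyclins, was higher in Axin2+ cells at 0.89 and 0.76, a mean fold of 1.77. Its log2 signals were 10.8 and 10.9 in Axin2+ cells and 9.95 and 10.2 in Axin2- cells. Both arrays held the same pools, so these are repeated readings of the same RNA. Of the 7 genes with a promoter entry, Cdk4 and Cdk6 were those whose upstream region held CACGTG. Ccnd1 and Ccnd2 had no entry, and a link between the letters and the ratios was not tested.

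The D cyclins, which activate these kinases, did not move alike. Ccnd1, read by 10 spots of 1 probe per array, had ratios of 0.70 and 0.61 with an SD over spots of 0.04 and 0.05. Its log2 signals were 10.6 on both arrays in Axin2+ cells and 9.93 and 9.94 in Axin2- cells. Ccnd2 was higher on all 3 of its probes, with 0.74 and 0.54 on the brightest, 0.62 and 0.43 on the second and 0.81 and 0.43 on the third. Ccnd3 was lower, at -0.18 and -0.51, and the distance between its arrays was as large as its mean of -0.34. Ccnd1 and Ccnd2 were thus above 1.5-fold and Ccnd3 lay in the opposite direction within it. Ccne1, which activates Cdk2, was higher by less, at 0.42 and 0.23, and its dimmer probe had 0.07 and 0.09.

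Among the inhibitors, Cdkn1a, a p53 target that holds cells in G1, was the lowest gene of the set. Its log2 signals were 8.42 and 8.51 in Axin2+ cells and 10.6 and 10.7 in Axin2- cells. The ratios of -2.20 and -2.21 correspond to 4.61-fold less in Axin2+ cells, and the SD over its spots was 0.04 and 0.06. Cdkn1c, an imprinted gene and the third Cip/Kip inhibitor, had log2 signals of 7.71 and 7.99 in Axin2+ cells and of 9.61 and 9.69 in Axin2- cells. Its ratios were -1.89 and -1.70, or 3.48-fold less. Both inhibitors were separated between the pools by more than 1.7 on either array.

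Cdkn1b and Cdkn2c did not share this direction. Cdkn1b had 0.19 and -0.17 on its brightest probe, 0.32 and 0.31 on a second probe of 10 spots per array and 0.29 and 0.55 on the third. In the software's own log ratios these probes had 0.24 and -0.11, 0.35 and 0.42, and 0.67 and 1.28. Cdkn2c, an Ink4 inhibitor, was slightly higher in Axin2+ cells, at 0.43 and 0.18 on one probe and 0.38 and 0.20 on the other. In order of the mean ratio the set ran Cdk6, Cdk4, Ccnd1, Ccnd2, Ccne1, Cdkn2c, Cdkn1b, Ccnd3, Cdkn1c and Cdkn1a. From Cdk4 to Ccnd2, and from Ccne1 to Ccnd3, the arrays of neighbouring genes overlapped or lay within 0.1 of each other, whereas Cdk6, Cdkn1c and Cdkn1a each stood clear of the next gene.

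Marker genes of the sort moved with these values, and their part in them was not tested. The proliferation markers were higher on both arrays for 6 of 6 genes, and their summed signal was 6697 and 6731 in Axin2+ cells and 2469 and 2335 in Axin2- cells. The surface enterocyte markers were lower for 5 of 5 genes, with sums of 29410 to 36650 in Axin2+ and 129700 to 152400 in Axin2- cells. The goblet cell markers were lower for 4 of 5 genes and the enteroendocrine markers for 5 of 5. In pools of cells, fewer cells of a type and less RNA per cell cannot be told apart. Fibroblast and endothelial markers were mostly not well above background, with 2 of 6 and 1 of 4 measured.

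In whole colon after loss of Rspo3, most of the set lay close to its control. Of the 10 genes, 2 were higher on both arrays (Ccnd2 and Cdkn1a), 3 were lower on both (Ccnd1, Cdkn1b and Cdkn2c) and 5 had opposite directions. Over all 15382 genes, 3122 were higher on both arrays, 3683 were lower on both and 8577 had opposite directions. Past 1.5-fold were 0 higher genes and 1 lower gene, Cdkn1b. Among all genes measured on these arrays, 1.86% were past it higher and 2.47% lower, and limma called 0.234% at an adjusted p under 0.05. Nothing is read from these shares for the members, whose values helped to choose them. The median of the 10 mean ratios was -0.12, against -0.01 for all genes.

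Cdkn1b, the inhibitor p27 that keeps cells out of the cycle, had log2 signals of 8.59 and 8.36 in the KO mice and of 9.77 and 10.99 in the control mice. On this probe both KO mice lay below both control mice, a difference that helped to choose the set, so nothing is read from it. The control mice differed from each other by more than the KO mice did. These signals were taken after the mean levels of both arrays had been brought to the same distribution. The ratios were -1.17 and -2.62, a mean of -1.90 ± 1.03 (SD, n = 2 pairs of mice), or 3.73-fold less in the KO. With the background fitted to all spots the array 1 ratio was -0.39, within 1.5-fold, and the mean -1.51. With median centring in place of loess the array 1 ratio was -0.54, also within 1.5-fold, the array 2 ratio -3.195 and the mean -1.87. This probe lies at chr6:134875215-134875274 of mm9, at the base listed as 2076 of its transcript.

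The other Cdkn1b probes did not show the difference. A probe of 10 spots at chr6:134871103-134871161 had log2 signals of 7.41 and 7.21 in the KO and 7.05 and 7.21 in control mice, with ratios of 0.36 and 0.01 and SDs over spots of 0.06 and 0.04. The third probe stayed within the background of all 4 mice. With the measured probes averaged, Cdkn1b had a mean of -0.86. The lower signal of Cdkn1b in the KO therefore rests on 1 of its 3 probes, 1 spot on each array. In the software's own log ratios the brightest probe had -1.59 and -2.87 and the probe of 10 spots 0.93 and 0.07.

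**Figure D2:**
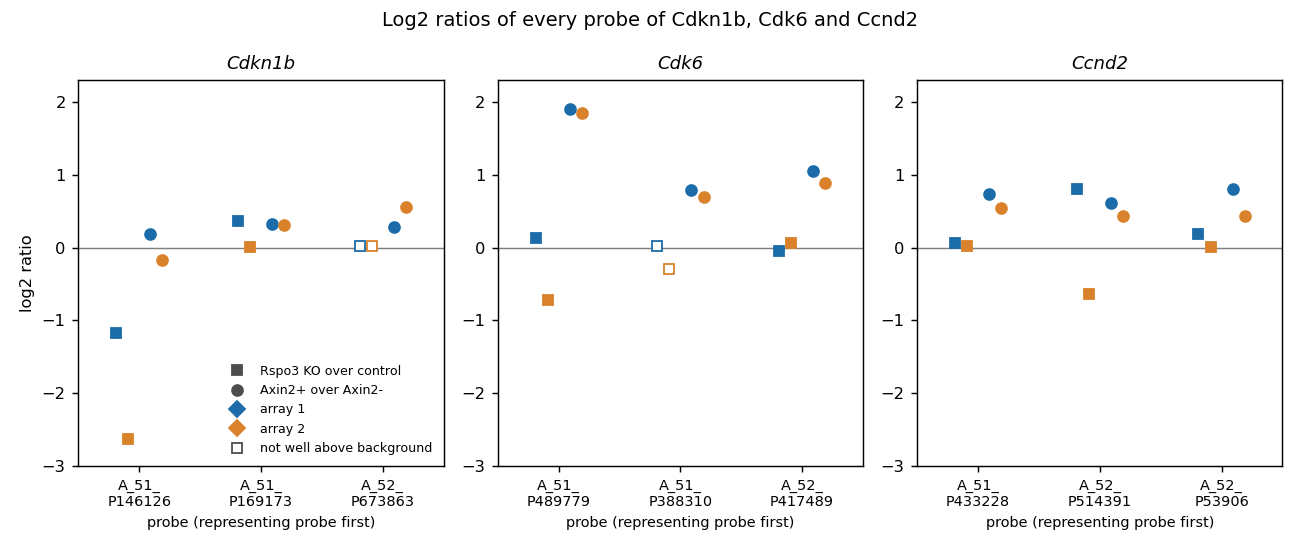
Log2 ratio (y axis) of each probe (x axis, representing probe first) of Cdkn1b, Cdk6 and Ccnd2, with squares for Rspo3 KO over control, circles for Axin2+ over Axin2-, blue for array 1, orange for array 2 and open symbols where neither channel was well above background. The first Cdkn1b probe lies at -1.17 and -2.62 in the KO while the second lies at 0.36 and 0.01, and all 3 Cdk6 probes lie above 0 in Axin2+ cells.

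The remaining inhibitors differed less between KO and control. Cdkn1a was higher in both pairs, with log2 signals of 11.9 and 12.1 in KO mice and of 11.54 and 11.68 in control mice. Its ratios of 0.36 and 0.42 had a mean of 0.39 ± 0.04 (SD, n = 2). With median centring in place of loess the arrays took opposite signs for Cdkn1a (1.14 and -0.25). Cdkn2c was lower at -0.17 and -0.25 on one probe and at -0.16 and -0.25 on the other. With median centring its arrays also took opposite signs, at 0.58 and -0.86 on one probe and 0.58 and -0.85 on the other. Cdkn1c had 0.05 and -0.31.

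The kinases and cyclins had no common direction in the KO. Cdk6 had 0.14 and -0.72 on its brightest probe and -0.05 and 0.07 on the second, and the third was not well above background. Cdk4 had -0.51 and 0.02. Ccnd1 had -0.14 and -0.01, Ccnd3 -0.29 and 0.06 and Ccne1 -0.19 and 0.14. Ccnd2 had 0.06 and 0.01 on the brightest probe and 0.18 and 0.01 on the third, whereas the second had 0.80 and -0.64. Apart from Cdkn1b, none of these mean ratios exceeded 0.4 in size, and for Ccnd3, Ccne1, Cdk4, Cdk6 and Cdkn1c the sign differed between the 2 pairs of mice.

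Marker genes of other cells also differed between KO and control, and their part in these values was not tested. The 4 measured B and T cell markers of 6 were lower in both pairs, with Ms4a1 called by limma (adjusted p = 0.014), and the summed signal of all 6 was 999 and 1032 in KO mice and 4050 and 2338 in control mice. Cd79a and Cd3e were not well above background. All 5 stem cell markers were lower in both pairs. The macrophage markers were higher in both pairs for 5 of 6 genes and smooth muscle markers for 4 of 5 measured. The proliferation markers had a median ratio of -0.63 on array 1 and 0.19 on array 2. The epithelial markers measured, 4 of 6, had sums between 259400 and 268600 in every mouse. Smooth muscle and fibroblast markers were bright in each of these mice, with sums of at least 88470 and 96830, so the RNA was not of epithelium alone.

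The partners of the set were followed in 7 lists with 58 genes. In the KO, 53 were measured, and limma with Benjamini-Hochberg adjustment over all 15382 genes called 0 of them, beside 36 of all genes. By limma at an unadjusted p under 0.05, 1 was higher and 4 lower, beside 300 and 411 of all 15382 genes. Past 1.5-fold, 0 were higher and 5 lower, beside 1.86% and 2.47% of all genes. The 5 genes were 2 E2F factors and 3 genes of S phase entry. E2f1, an activator of S phase genes, had -0.64 and -0.55, and E2f7, a repressor of the family, -0.79 and -0.50. The mean of E2f1, -0.60, came within 1.5-fold at -0.30 with its probes averaged, -0.39 with the background fitted to all spots and -0.51 with median centring. Of the replication factors, Mcm6 had -0.76 and -0.57, Cdt1 -0.65 and -0.60 and Mcm7 -1.20 and -0.10. The median of the 12 S phase entry genes was -0.36, with -0.62 on array 1 and -0.12 on array 2, against -0.01 for all genes. Of these 12 genes, 6 were lower on both arrays and 6 had opposite directions. Over all 15382 genes, 3683 were lower on both and 8577 had opposite directions. Of the other partners, none of which was past 1.5-fold or an adjusted p under 0.05, Rb1, the retinoblastoma protein, had 0.83 and 0.33, with an unadjusted p of 0.048 by limma, and Myc 0.72 and 0.24. Ccne2, the second E cyclin, had 0.24 and 0.26 and Skp2, which marks p27 for destruction, 0.25 and -0.12. The smallest adjusted p of these 53 genes was 0.80 (limma, Mcm6).

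In Axin2+ cells 57 partners were measured, with 13 past 1.5-fold higher and 2 lower, beside 7.87% and 6.92% of all genes. Of the S phase entry genes, 12 of 12 were higher on both arrays and 9 were past 1.5-fold, with a median of 0.87. Over all 15880 genes, 6521 were higher on both arrays and 7.87% were past 1.5-fold higher. The highest were the helicase subunits Mcm4 (1.64 and 1.33), Mcm6 (1.06 and 1.29), Mcm7 (1.12 and 1.16) and Mcm3 (1.14 and 1.005). Ccna2, the cyclin of S phase, had 0.99 and 0.75. Cks1b, the cofactor of Skp2, had 0.73 and 0.85, and Fbxo5, an inhibitor of the anaphase-promoting complex, 1.06 and 1.07. Myc had 1.17 and 1.28. Cdk2 had 0.01 and 0.18, Ccne2 -0.12 and 0.16 and Skp2 0.11 and 0.12. E2f1 had 0.66 and 0.40 and Rb1 -0.55 and -0.47. Skp2 and E2f1 were past 1.5-fold in the software's own log ratios, with means of 0.75 and 1.06.

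The 2 lower partners were an inhibitor and a regulator of one. Cdkn2b (p15), like Cdkn2c an inhibitor of the Ink4 family, had -2.49 and -2.58, against 0.43 and 0.18 for Cdkn2c. Klf4, a factor of differentiated epithelium that acts on Cdkn1a, had -1.04 and -0.997. In the KO the spots of Klf4 and Cdkn2b were removed as non-uniform, and with such spots kept their means were 0.07 and -0.04. Cdkn2a was not measured in either experiment, and Cdk2 was too dim in the KO experiment.

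**Figure D3:**
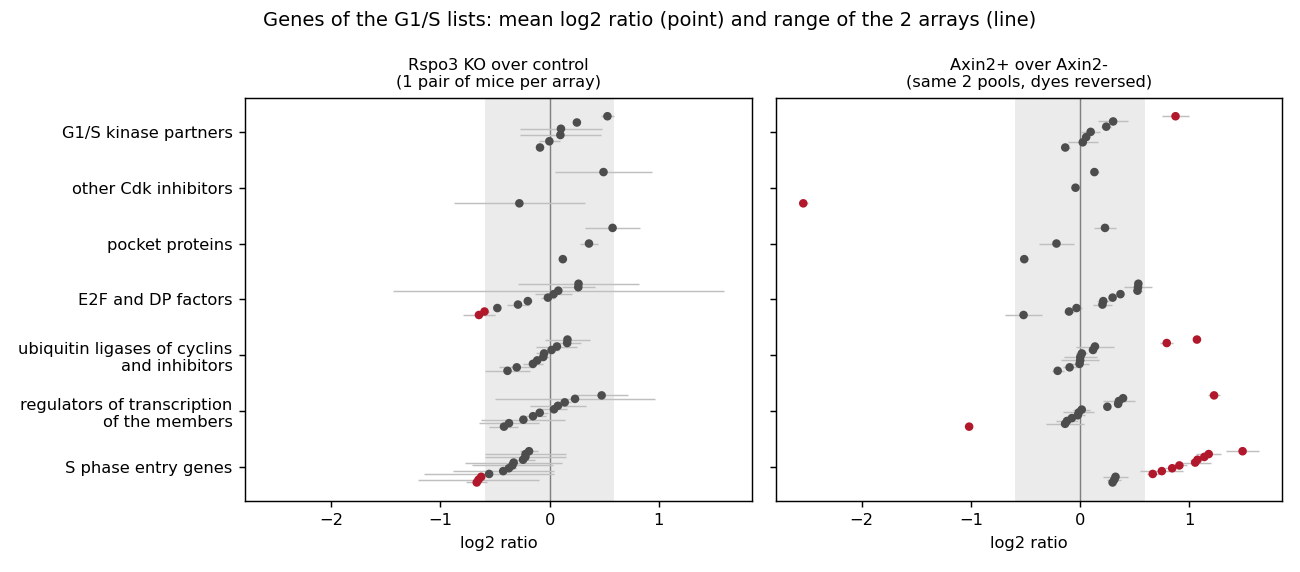
Log2 ratio (x axis) of every measured gene of the 7 partner lists (y axis), as the mean of both arrays (point) with the range of the 2 arrays (line), red where the gene is past 1.5-fold, for Rspo3 KO over control (left) and Axin2+ over Axin2- (right), with the band within 1.5-fold in grey. In the right panel 9 of 12 S phase entry genes are red and Cdkn2b is at -2.54, and in the left panel 5 genes are red, all below 0.

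The genes with 4 ratios most like those of Cdkn1b and Cdk6 were found by Euclidean distance among 13527 genes measured in both experiments, a description in which the choice of Cdkn1b and Cdk6 by these same ratios is contained. For Cdkn1b the nearest were 2310001H17Rik, at a distance of 0.41, Bex4 (0.94), Raet1e (1.02), H60c (1.13) and Ccdc122 (1.15). 2310001H17Rik had -1.35 and -2.47 in the KO and -0.13 and -0.06 in Axin2+ cells, and beyond it the distance more than doubled. For Cdk6 the nearest were D10Bwg1070e (0.42), the transcript listed as TC1708996 (0.45), Utrn (0.51), the transcript AK141415 (0.54) and Clca3a2 (0.60). D10Bwg1070e had 1.87 and 2.14 in Axin2+ cells and -0.15 and -0.79 in the KO.

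**Figure D4:**
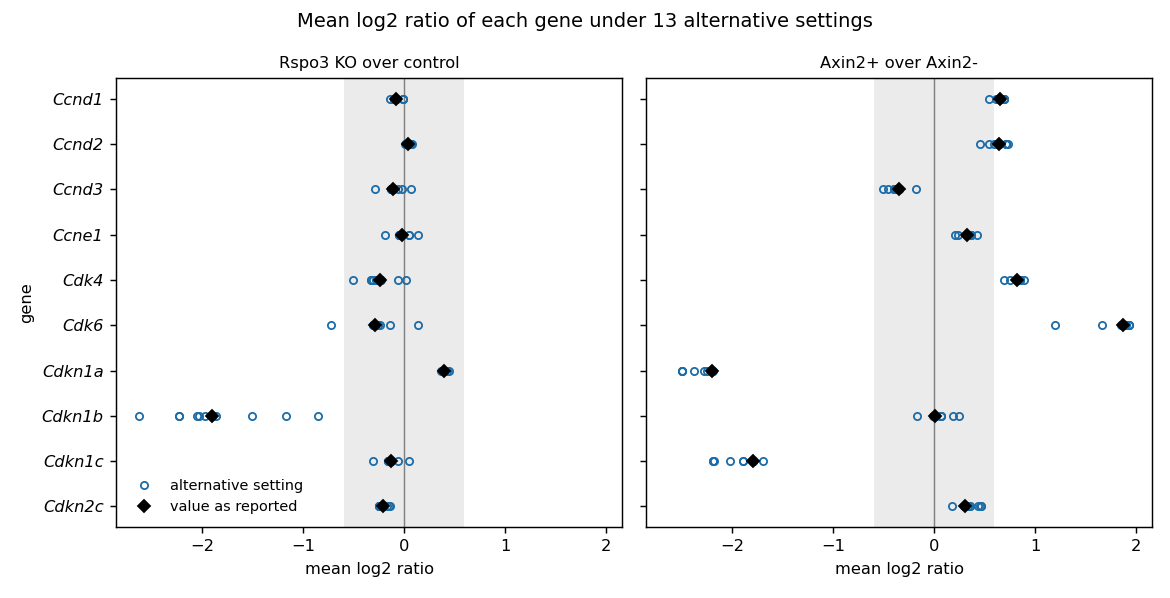
Mean log2 ratio (x axis) of each gene as reported (black diamond) and under 13 alternative settings of background, normalisation, filter, probe choice and arrays (open circles), for Rspo3 KO over control (left) and Axin2+ over Axin2- (right), with the band within 1.5-fold in grey. Cdkn1b in the KO ranges from -2.62 to -0.86 and Cdk6 in Axin2+ cells from 1.19 to 1.94, and neither crosses 0.

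Under 13 alternative settings the signs of the larger means held. The software's log ratio and the series' table are counted separately although they hold the same values. All settings but the mean over probes used the same Cdkn1b probe. Cdkn1b in the KO ranged from -2.62 to -0.86, where the highest value was the mean over its measured probes. In Axin2+ cells Cdk6 ranged from 1.19 to 1.94, Cdk4 from 0.69 to 0.89, Ccnd1 from 0.54 to 0.70 and Ccnd2 from 0.46 to 0.74. Cdkn1a ranged from -2.50 to -2.20 and Cdkn1c from -2.20 to -1.70. In the KO the sign of Cdk4, Cdk6, Ccnd3 and Cdkn1c turned in 1 setting each, when array 1 or array 2 was left out, and that of Ccne1 in 3.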

How the data were processed

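The 4 arrays were dual-color Agilent whole mouse genome arrays, 2 per experiment, and were grouped by their labels. Labelling, hybridisation and scanning were done by the authors, who extracted the spots with Agilent Feature Extraction (11.5.1.1 in the file headers). Per spot, the authors deposited a mean and a background signal intensity for each dye and a log10 ratio of Cy5 over Cy3 made by that software. The series' table of values, as deposited, repeats the log10 ratio, with column medians of 0, and served as an alternative. The authors' combination of ratio profiles with error weights was approximated as another. Labels and methods name different kits for the colon RNA.

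Here, intensities were corrected by normexp in limma (version 3.58.1, R 4.3.3) with an offset of 50, which draws the ratios of dim probes towards 0, followed by loess on the log2 ratios of each array. Outlier spots were dropped. The 66 and 6 spots of the KO arrays with a non-uniform background did not enter the background fit, which was decided with the data in view. Spots of the same probe were averaged and ratios turned by dye. For log2 signals and marker sums, the mean levels of both arrays of an experiment were first brought to the same distribution (Aquantile in limma). The brightest probe stood for a gene, provided that on both arrays at least 1 of its channels was well above background. RefSeq gave names to 27668 of 41174 probes by accession, to 5589 by symbol and to 471 by synonym, and 7446 were left as in the files. In each channel 53.1% to 60.3% of spots were well above background, and precision is limited by how few arrays there are.

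The KO arrays were fitted with limma against 0, with Benjamini-Hochberg adjustment over all genes, and the procedure was tested on simulated data. Replicates are 2 pairs of mice, and the Axin2 arrays are 1 replicate. The members, the partner and marker lists and the rules were chosen with earlier results of these data known. Named were every member with every probe, up to 4 partners per list past 1.5-fold, Ccne2, Cdk2, Rb1, E2f1, Skp2, Myc and Klf4 always, and the 5 genes nearest to Cdkn1b and Cdk6. Probe positions are those of mm9 in the files.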

Additional observations from a re-analysis of the deposited data

How the results depend on the processing

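No mean ratio of a member past 1.5-fold changed sign under the alternatives run, although with median centring the array 2 ratios of Ccnd1, Ccnd2 and Cdk4 in Axin2+ cells did. No paired analysis was possible because the pairing is already inside each array's ratio, so that the fit reported is one of within-pair ratios without another block. Leaving out an array leaves no residual degrees of freedom, so those values have no test. The 36 genes called by limma in the KO became 1 with the background fitted to all spots, 71 with no background correction, 126 with an offset of 16, 8 with median centring, 129 with the software's log ratio and with the series' table, 3 with the mean over probes and 0 with no filter on dim probes, where 1204 genes had an unadjusted p under 0.05, against 711 in the fit reported. The 666 KO genes past 1.5-fold became 361 with the background fitted to all spots, 1477 with the software's log ratio and the series' table, 1379 with error weights and 183 at 2-fold, and ranged from 1555 to 2409 on single arrays. The 2348 genes in Axin2+ cells became 1090 with median centring, 5183 with the software's log ratio and the series' table, 5117 with error weights and 671 at 2-fold. KO partners past 1.5-fold higher, 0 as reported, became 3 with the software's log ratio and the series' table and 2 with error weights, and were 2 to 5 on single arrays. The 5 lower ones became 3 with the background fitted to all spots, 2 with median centring and 0 at 2-fold, and were 5 to 12 on single arrays. The 13 partners higher in Axin2+ cells became 5 with median centring and 7 at 2-fold. The 4 members higher in Axin2+ cells became 1 with median centring and 1 at 2-fold. With array 2 alone, 2 members were past 1.5-fold lower in the KO, Cdkn1b and Cdk6, and with array 1 alone 1. Keeping outlier spots was chosen after seeing the data and moved none of these counts by over 1.5 times. Except where the setting itself removes arrays, adds genes or raises the threshold, the cause was not tested.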
